A study of Mus musculus with 168 samples.

Results

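These results cover the prolonged effect of the Janus kinase inhibitor SB00526221 in arrays labelled spleen MF (macrophages). They rest on 6 arrays from treated mice and 8 from mice given plain vehicle, 14 of the 168 arrays of the series. Arrays were chosen by their labels alone: the compound or the vehicle without acid, 14 or 15 treatments, and tissue spleen with cell type MF. All mice were C57BL/6 males, 6 weeks old, and received compound or 0.5 % MC (the vehicle, taken as methylcellulose) by gavage. The labels used here give no dose, and the compound is known only by its code. Cells were taken for F4/80, the macrophage surface protein encoded by Adgre1, with dissection or trimming named as the separation step. RNA was hybridised to Affymetrix Mouse Gene 1.0 ST arrays.

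The 14 arrays came from 4 experiments, named by the first part of each title. J2 held 1 treated and 1 vehicle array (14 treatments, 14 h after the last). J3 held 2 vehicle arrays (14 treatments, 15 h) and no treated array. J6 held 3 treated and 2 vehicle arrays (15 treatments, 15 h). J8 held 2 treated and 3 vehicle arrays after 14 treatments, with 1 of each group taken at 17 h and the others at 14 h. Title numbers were read as animals, so each array is taken as 1 mouse. Nothing else in the labels says which mice were separate, and p-values then measure only the spread between arrays, which may be partly technical.

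Janus kinases (JAK1, JAK2, JAK3 and TYK2) sit on the inner side of cytokine receptors and phosphorylate STAT transcription factors when a ligand binds. In macrophages, type I interferon acts through JAK1 and TYK2 and switches on antiviral genes through the interferon-stimulated response element (ISRE), while interferon-gamma acts through JAK1 and JAK2 and raises antigen presentation by major histocompatibility complex (MHC) class II. Resting macrophages keep part of the antiviral programme on through low-level interferon, and resident macrophages can divide in the tissue.

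The label was first set against marker genes. Levels are log2 intensities of single probe sets, so a level is compared between arrays and not between genes. The 6 large peritoneal macrophage markers in the table averaged 11.96 ± 0.18 (SD, n = 8) in the vehicle arrays and 12.03 ± 0.14 (SD, n = 6) in the treated arrays. In the other spleen cell types of the series their median lay between 6.536 (dendritic cells) and 7.04 (T4, CD4+ T cells), and in peritoneal MF at 11.95. Of the red pulp markers that define most F4/80+ cells of the spleen, Spic, its lineage factor, averaged 5.05 in both groups, and Slc40a1, the iron exporter ferroportin, 5.47 in vehicle and 5.59 in treated arrays. Vcam1, an adhesion molecule, averaged 5.91 and 6.06, and Treml4, a surface receptor, 6.18 and 6.11. Array medians over all probe sets lay between 6.93 and 7.08, so these 4 genes were below them. The fifth red pulp marker, Hmox1, which encodes the haem-degrading enzyme, was well above them at 10.46 in vehicle and 10.37 in treated arrays, and was the 1 of 5 that passed the filter on low values. The high peritoneal markers and 4 of 5 low red pulp markers go against the splenic label, with Hmox1 as the exception, and "macrophages" below means the arrays labelled spleen MF. Markers of T cells, natural killer cells, granulocytes, eosinophils, mast cells and erythroid cells had 0 members that passed the filter on low values. B cell markers averaged 6.81 ± 0.23 (SD, n = 8) in vehicle and 6.85 ± 0.19 (SD, n = 6) in treated arrays, with 0 of 6 tested members past the threshold used below.

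A gene was tested if it exceeded the array median in at least 3 of the 33 arrays labelled spleen MF, which left 11008 genes. Differences are SB00526221 minus vehicle on the log2 scale, from a limma fit over these 33 arrays (9 groups) with experiment as a term, and p-values were adjusted by Benjamini-Hochberg over the 11008 genes. With SB00526221, 18 genes fell past an adjusted p of 0.05, which is 0.164% of those tested, and 0 rose (0%). At an unadjusted p under 0.05 stood 656 genes (5.96%), of which 563 were lower and 93 higher. The 18 genes were 4 interferon-stimulated genes, 2 of MHC class II presentation, 10 of the cell cycle, the immunoglobulin receptor gene Fcgr4 and the kinase gene Map4k1. Of them 17 were lower in 6 of 6 treated arrays than the vehicle mean of the same experiment, and Kif18b in 5 of 6. Among all genes tested, 488 (4.43%) were lower in 6 of 6. The last gene inside the threshold was Fcgr4 (adjusted p = 0.0462), and the first outside were Anln (-0.89, adjusted p = 0.0531) and Ckap2l (-0.72, adjusted p = 0.0573), which act in cell division.

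The count depends on single arrays. It lay between 1 and 66 when each of the 14 arrays was left out in turn, was 0 without J6 and 2 without J8, and was 1 after quantile normalization. Ifi27l2a, the gene with the smallest p, passed in 14 of 14 fits that left out an array. Of the other 17 genes, Map4k1 and Rtp4 passed in the most of these fits, 7 of 14 each. It was 1 without vehicle replicate 4, 5 or 8 or SB00526221 replicate 4 or 6, and 66 without vehicle replicate 7. Other fits gave more genes, with the highest count, 158, under array weights. It was 61 with the 14 arrays alone, 48 without J3, 42 without SB00526221 replicate 1, 40 with a B cell marker covariate described below and 31 without the 4 arrays that stood apart from the rest by correlation. Vehicle replicate 1 was among these 4, with a mean correlation of 0.947 with the other arrays of the cell type against a limit of 0.949.

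To show the regulatory sequences beside the values, promoter windows of called genes and of Oas3, an antiviral gene just outside the threshold, were read from RefSeq (GRCm38.p6), from 250 bases before to 50 after the annotated start. A window was found for 14 of the 18 genes. The pair below is the called gene Fcgr4 and Oas3, both separated between the groups without overlap (values follow). The ISRE core (GAAA, any pair of bases, GAAA) is in capitals. Oasl2, a called interferon-stimulated gene that was also separated, held 0 ISRE cores in its window and is not shown. Slfn5, also separated but outside the threshold, held an ISRE core and is not shown either.
Fcgr4 (chr1:171018676-171018975, plus strand): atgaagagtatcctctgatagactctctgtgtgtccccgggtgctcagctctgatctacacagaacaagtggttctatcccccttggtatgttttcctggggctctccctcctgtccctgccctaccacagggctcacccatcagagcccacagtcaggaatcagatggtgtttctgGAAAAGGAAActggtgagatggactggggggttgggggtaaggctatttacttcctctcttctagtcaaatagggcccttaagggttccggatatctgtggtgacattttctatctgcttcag
Oas3 (chr5:120777610-120777909, minus strand): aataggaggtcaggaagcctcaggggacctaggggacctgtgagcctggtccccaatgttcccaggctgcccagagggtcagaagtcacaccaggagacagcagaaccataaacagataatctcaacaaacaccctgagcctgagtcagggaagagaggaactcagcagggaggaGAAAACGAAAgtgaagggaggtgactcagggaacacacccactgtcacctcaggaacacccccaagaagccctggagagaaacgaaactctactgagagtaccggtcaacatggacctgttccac
The next 4 belong to called cell cycle genes, with the cell cycle genes homology region (CHR, TTTGAA) and the CCAAT box (CCAAT) in capitals, on either strand. Each of the 4 holds both, as do E2f8 and Kif22, which are not shown. Of the other called cell cycle genes, Knl1 and Kif2c held the CHR without a CCAAT box. Cdkn2c held a CCAAT box without the CHR, and Tk1 held neither. In the textbook account, repressor and activator complexes of the cell cycle act through the CHR at mitotic promoters, often beside CCAAT boxes bound by NF-Y.
Plk1 (chr7:122159185-122159484, plus strand): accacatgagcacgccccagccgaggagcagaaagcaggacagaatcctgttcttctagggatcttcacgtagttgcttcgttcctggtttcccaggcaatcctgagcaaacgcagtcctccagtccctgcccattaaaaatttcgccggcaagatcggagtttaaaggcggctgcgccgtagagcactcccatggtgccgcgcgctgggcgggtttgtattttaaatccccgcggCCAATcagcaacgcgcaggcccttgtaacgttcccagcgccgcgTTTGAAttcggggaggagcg
Cdca3 (chr6:124829926-124830225, plus strand): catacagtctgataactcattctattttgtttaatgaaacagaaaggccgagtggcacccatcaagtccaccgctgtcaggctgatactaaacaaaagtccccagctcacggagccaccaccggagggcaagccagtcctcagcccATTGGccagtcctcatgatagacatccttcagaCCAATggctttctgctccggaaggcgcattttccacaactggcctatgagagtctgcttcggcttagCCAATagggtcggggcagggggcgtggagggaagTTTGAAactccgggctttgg
Kif18b (chr11:102925075-102925374, minus strand): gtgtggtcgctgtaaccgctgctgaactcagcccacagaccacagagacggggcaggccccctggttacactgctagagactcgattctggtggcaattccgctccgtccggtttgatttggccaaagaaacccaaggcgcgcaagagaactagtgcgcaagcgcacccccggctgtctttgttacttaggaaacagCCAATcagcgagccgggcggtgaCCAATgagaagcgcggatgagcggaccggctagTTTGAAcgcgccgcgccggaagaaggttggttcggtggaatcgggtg
Cdkn3 (chr14:46760291-46760590, plus strand): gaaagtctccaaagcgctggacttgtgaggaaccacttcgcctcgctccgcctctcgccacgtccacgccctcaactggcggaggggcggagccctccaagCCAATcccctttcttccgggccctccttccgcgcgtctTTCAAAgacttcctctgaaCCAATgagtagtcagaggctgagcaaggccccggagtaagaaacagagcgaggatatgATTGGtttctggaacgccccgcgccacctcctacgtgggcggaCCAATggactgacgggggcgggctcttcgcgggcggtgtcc

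Motifs were searched as letters on both strands, and a match is only a description of the sequence. Besides the ISRE core, CHR and CCAAT box, the search took the STAT site GAS (TTCNNNGAA), a CHR variant (TTCGAA), an E2F site (TTTNNCGC) and an X box core (AGCAACAG). In the windows of the called genes, Oas3 and Slfn5, 0 pairs of different motifs shared bases. Of all 32851 windows of this length, 17.9% held the CHR, 37.4% the CCAAT box, 3.44% the ISRE core, 8.3% the GAS, 5.17% the E2F site, 1.56% the CHR variant and 2.3% the X box core. Of the 10 called cell cycle genes, each of which had a window, 8 held the CHR, at 30 bases after the start in Plk1 and Cdca3. Of the 14 called genes with a window, 3 held the ISRE core: Fcgr4 and the cell cycle genes E2f8 and Cdca3. The core of Cdca3 is left in lower case above. Among called interferon-stimulated genes, Ifi27l2a, Rtp4 and Ly6e had no window, and that of Oasl2 lacked the ISRE core. Of the tested genes of the mitosis list, 33 of 44 with a window held the CHR (75%), against 13.7% of all tested genes with a window. Of the tested genes of the interferon-stimulated list, 13 of 30 with a window held the ISRE core (43.3%), against 3.63%. The E2F letters stood in 19 of 42 S-phase genes with a window (45.2%), against 9.91%, but in 0 of the 10 called cell cycle genes. Of 10 class II genes with a window, 8 held the CCAAT box (80%), against 42.2%, and 0 held the X box core.

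The interferon-stimulated genes that passed were Ifi27l2a, Rtp4, Oasl2 and Ly6e, and all of them fell. Ifi27l2a, a small interferon-induced membrane protein gene, ranged from 7.40 to 9.42 in vehicle arrays (median 8.49) and from 6.398 to 7.67 in treated arrays (median 6.82). The lowest vehicle array, in J2, lay inside the range of the treated arrays, but in each experiment the treated arrays were below the vehicle arrays. Ifi27l2a was 2.64-fold lower by the fit (-1.40 ± 0.20 SE, adjusted p = 0.00131, limma), with -0.999 in J2, -1.45 in J6 and -1.68 in J8.

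Rtp4, an interferon-induced chaperone of membrane receptors, lay between 9.16 and 9.93 in vehicle arrays (median 9.34). Treated arrays ran from 7.37 to 9.31 (median 8.01), and 1 of them, the J8 array at 14 h, reached the vehicle range. The fitted difference was -1.16 ± 0.21 (SE, adjusted p = 0.03, limma), and within J8 it was -0.03 at 14 h and -1.24 at 17 h, with 1 treated array at each time. Oasl2, of the oligoadenylate synthetase family that senses double-stranded RNA, stood between 9.01 and 9.69 in vehicle arrays (median 9.26) and between 7.98 and 8.92 in treated arrays (median 8.49). The groups did not overlap for Oasl2, and the difference was -0.73 ± 0.15 (SE, adjusted p = 0.0367, limma). Ly6e, an interferon-induced protein anchored on the cell surface, changed least: 12.50 ± 0.14 (SD, n = 8) in vehicle and 12.13 ± 0.22 (SD, n = 6) in treated arrays, a difference of -0.38 ± 0.08 (SE, adjusted p = 0.0384, limma). The highest treated Ly6e value, 12.53, was the J2 array, whose vehicle partner was also the highest of its group at 12.82.

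**Figure D1:**
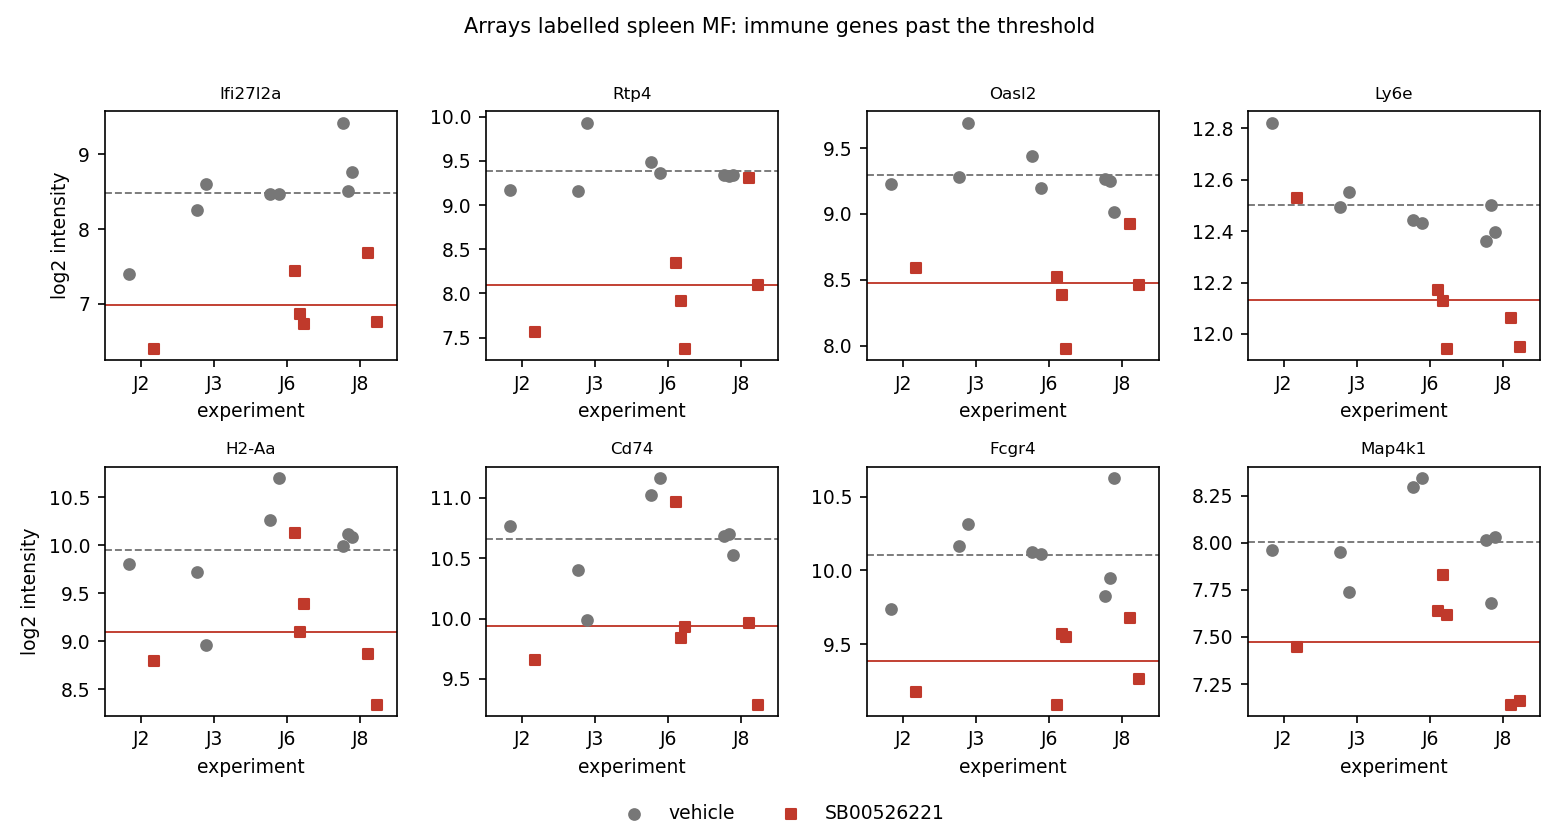
Log2 intensity of 8 immune genes past the threshold, by experiment. Grey circles are the 8 vehicle arrays, red squares the 6 SB00526221 arrays, and the dashed and solid lines their means; axes do not start at 0. Oasl2 and Fcgr4 show no overlap between groups, and 1 treated J8 array reaches the vehicle range for Rtp4.

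Of the 54 listed type I interferon-stimulated genes, 41 were tested and 4 passed, all lower. The median difference of the tested members was -0.24, against -0.01 over all genes tested, and 39 of 41 were below 0, where 54.5% of all genes tested were. The list was chosen with earlier results of these data known, and its members can vary together, so these counts are descriptions. The members that did not pass stood between -0.57 and 0.11. Among these were Oas2 at -0.57 (adjusted p = 0.106) and Oas3 at -0.49 (adjusted p = 0.0665), both oligoadenylate synthetases, and Slfn5, of the schlafen family, at -0.54 (adjusted p = 0.296). These genes were picked after their values were seen, because all 6 treated arrays lay below all 8 vehicle arrays. For Oas3 the treated arrays ran from 6.82 to 7.16 and the vehicle arrays from 7.34 to 7.74. Genes with every treated array below every vehicle array numbered 7 of 11008 (0.0636%): Cdkn3, Oasl2, Fcgr4, Oas3, Oas2, Slfn5 and Mpdu1, the last of which serves protein glycosylation. In the other direction there were 2 (0.0182%), Zc3h7a and Mga.

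Irf7, the transcription factor that amplifies type I interferon, was at -0.50 ± 0.15 (SE, adjusted p = 0.179, limma), with 0.12 in J2, -0.70 in J6 and -0.68 in J8. Usp18, which damps the interferon receptor, was at -0.48 (adjusted p = 0.136) and Stat2, a subunit of the factor that binds the ISRE, at -0.31 (adjusted p = 0.792). Not every gene of the interferon list stood lower: Trim30a was at 0.01 and Parp14 at 0.11, both named after their values were seen. Bst2 (tetherin), at -0.01, and Oas1a, at -0.05, lay close to 0. Each of these genes had an adjusted p of 0.999. By experiment, the median of the interferon list was -0.19 in J2, -0.42 in J6 and -0.08 in J8. It stood at -0.15 without J6 and at -0.34 without J8. The mean over the tested members lay between 8.79 and 9.06 in vehicle arrays and between 8.43 and 8.83 in treated arrays, with 1 treated array, again J8 at 14 h, inside the vehicle range.

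The interferon-gamma and GTPase list had 0 of 13 tested members past the threshold, with a median of -0.10. Its lowest members were Gm12250 (-0.36, adjusted p = 0.22) and Gbp9 (-0.27, adjusted p = 0.659), interferon-inducible GTPases that act against microbes inside cells. MHC class I processing had 0 of 12, with a median of -0.05. There Psmb9, an immunoproteasome subunit, was at -0.30 (adjusted p = 0.198), Tap1, a peptide transporter, at -0.28 (adjusted p = 0.64), and Pdia3, a chaperone of peptide loading, at 0.20 (adjusted p = 0.319).

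In MHC class II presentation, H2-Aa and Cd74 fell, 2 of 13 tested members of 17 listed. H2-Aa encodes the alpha chain of the I-A molecule, and its log2 level ranged from 8.96 to 10.70 in vehicle arrays (median 10.04) and from 8.34 to 10.12 in treated arrays (median 8.98). The ranges overlapped, with 3 treated arrays inside the vehicle range, but each treated array was below the vehicle mean of its experiment. H2-Aa was 2.158-fold lower (-1.11 ± 0.21 SE, adjusted p = 0.03, limma), with -1.004 in J2, -0.94 in J6 and -1.46 in J8. Cd74, the invariant chain that guards the peptide groove, was at 10.65 ± 0.36 (SD, n = 8) in vehicle and 9.94 ± 0.56 (SD, n = 6) in treated arrays, a difference of -0.94 ± 0.20 (SE, adjusted p = 0.043, limma). The highest treated array for both genes was replicate 2 in J6 (10.12 for H2-Aa and 10.97 for Cd74), while the other treated arrays of J6 lay at 9.09 and 9.39 for H2-Aa.

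H2-Ab1, the partner beta chain, stood at -1.02 ± 0.24 (SE, adjusted p = 0.0665, limma), and H2-Eb1, named after its value was seen, at -0.60 (adjusted p = 0.231). Ifi30, a thiol reductase of the antigen-processing compartment, was at -0.38 (adjusted p = 0.106). The list was uneven: Ctss, the protease that trims the invariant chain, was at 0.02, and the list median was -0.20 with 9 of 13 below 0. Because these are bulk samples, fewer cells of a type and less RNA per cell cannot be told apart.

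Markers of the small peritoneal or monocyte-derived macrophage were followed because that cell is known for high class II and CCR2. Of 6 listed, 5 were tested and 0 passed. Their mean lay between 8.03 and 8.82 in vehicle arrays and between 8.09 and 8.53 in treated arrays, a difference of -0.27, with -0.28 in J2, -0.33 in J6 and -0.21 in J8. Ccr2, a chemokine receptor of monocyte-derived cells, was at -0.74 ± 0.22 (SE, adjusted p = 0.174, limma), and Folr2, a folate receptor, at -0.77 ± 0.22 (SE, adjusted p = 0.167, limma). Irf4, Lyve1 and Cx3cr1 were at 0.08, 0.04 and -0.05. With the mean of these markers as a covariate, a fit chosen after seeing the data, 0 genes passed (461 at an unadjusted p under 0.05). In that fit H2-Aa was at -0.83, Plk1 at -0.63, Rtp4 at -0.92 and Ifi27l2a at -1.13 (adjusted p = 0.24). With the B cell marker mean as covariate, also chosen after seeing the data, 40 genes passed, the 18 among them.

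The largest group of called genes was that of cell division. From the mitosis list, 6 genes fell: Plk1, Cdkn3, Knl1, Cdca3, Kif2c and Kif22. From the DNA replication and S phase list, E2f8 and Tk1 fell. Kif18b and Cdkn2c are cell cycle genes outside the lists and fell too.

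Plk1, the kinase that drives entry into mitosis, ranged from 7.87 to 9.10 in vehicle arrays (median 8.25) and from 7.33 to 8.003 in treated arrays (median 7.62). It was 1.78-fold lower (-0.83 ± 0.16 SE, adjusted p = 0.03, limma). Cdkn3, a phosphatase of cyclin-dependent kinases, ran from 7.38 to 8.85 in vehicle (median 7.60) and from 6.50 to 7.34 in treated arrays (median 7.05). The groups of Cdkn3 did not overlap, and the difference was -0.93 ± 0.18 (SE, adjusted p = 0.0367, limma). E2f8, an atypical E2F factor that represses replication genes, was at 8.49 ± 0.32 (SD, n = 8) in vehicle and 7.66 ± 0.38 (SD, n = 6) in treated arrays (-0.89 ± 0.17 SE, adjusted p = 0.03, limma).

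Of the remaining called genes, Knl1, the kinetochore scaffold, was at -0.84 (adjusted p = 0.0367) and Cdca3, which promotes entry into mitosis, at -0.66 (adjusted p = 0.0397). The kinesins Kif2c (-0.54), Kif18b (-0.63) and Kif22 (-0.57), motors of spindle microtubules and chromosomes, had adjusted p between 0.0427 and 0.0462. Kif2c averaged 6.71 in vehicle and 6.28 in treated arrays, below the array medians of 6.93 to 7.08. Its highest treated value was 6.51, and a filter of 6 arrays left it out. Treated arrays of Knl1 and Kif22 also averaged below those medians, at 6.64 and 6.79, with vehicle at 7.33 and 7.26. These calls rest on low intensities. Kif18b was at 0.00 in J2, where each group had 1 array, and at -0.86 in J6 and -0.78 in J8. Tk1, thymidine kinase, was at -0.58 (adjusted p = 0.0462), and Cdkn2c, an inhibitor of CDK4 and CDK6, at -0.53 (adjusted p = 0.0384). The genes that fell include Cdkn2c and E2f8, which are known to hold the cycle back, beside Plk1 and Tk1, which serve it.

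Of 63 listed mitosis genes, 53 were tested, 6 passed, and 53 of 53 were below 0 with a median of -0.60. At an unadjusted p under 0.05, 49 of the 53 were lower, where 563 of all 11008 genes were. Of 55 listed S phase genes, 51 were tested, 2 passed, and 51 of 51 were below 0 with a median of -0.36, of which 31 had an unadjusted p under 0.05. Both lists were chosen with earlier results of these data known. Their members can rise and fall together between arrays, so these counts are descriptions and not independent tests. Rrm2, a subunit of ribonucleotide reductase, was at -0.81 (adjusted p = 0.116), and Fanci, of the Fanconi repair pathway, at -0.54 (adjusted p = 0.106). The proliferation markers Mki67 and Top2a, named after their values were seen, were at -0.79 (adjusted p = 0.12) and -0.70 (adjusted p = 0.17).

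**Figure D2:**
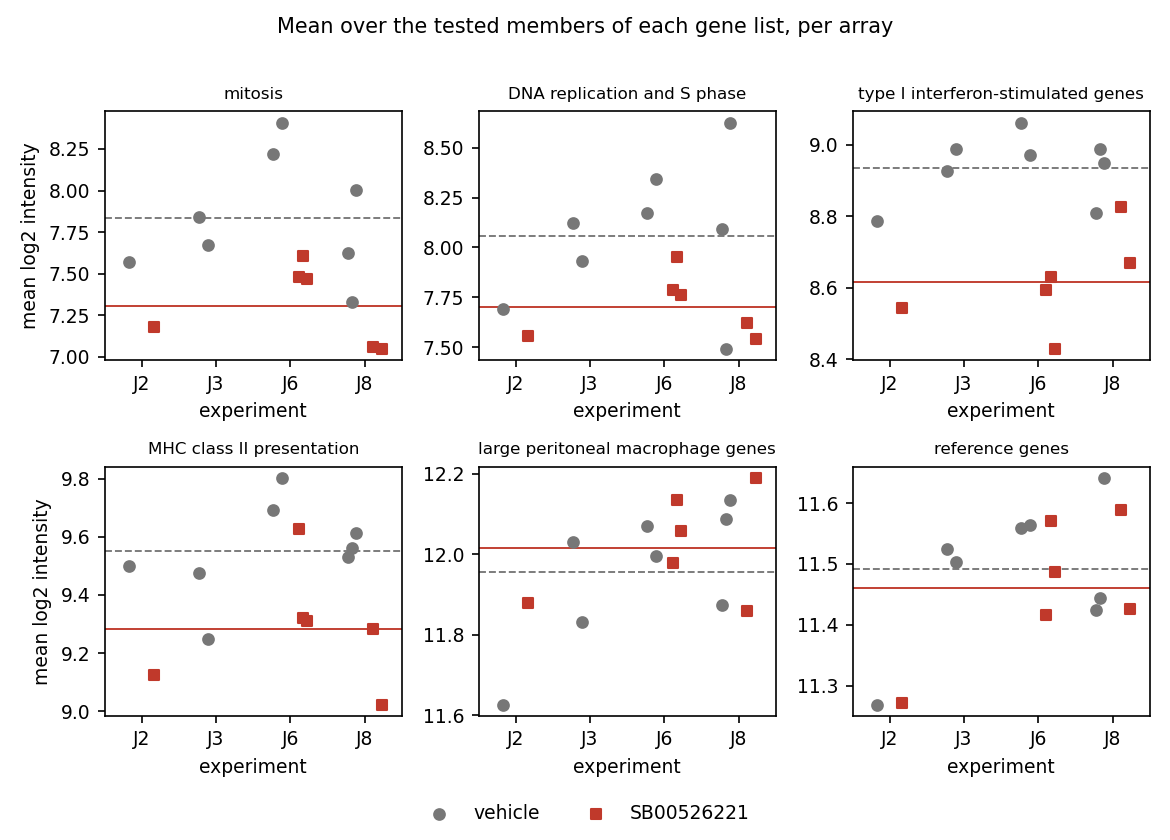
Mean log2 intensity over the tested members of 6 gene lists in each array, by experiment, with vehicle in grey circles and SB00526221 in red squares; lines are group means and axes do not start at 0. In J6 both vehicle arrays are above all treated arrays for mitosis, and the reference and large peritoneal macrophage lists show the groups mixed.

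The mitosis mean varied between vehicle arrays of different experiments. It lay between 7.33 and 8.41 in vehicle arrays (median 7.76), highest in J6 at 8.22 and 8.41, and between 7.05 and 7.61 in treated arrays (median 7.33), with 3 treated arrays inside the vehicle range. Within each experiment every treated array was below every vehicle array. The median difference of the mitosis list was -0.37 in J2, -0.79 in J6 and -0.62 in J8. The S phase mean overlapped in full, with 6 treated arrays (7.54 to 7.95) inside the vehicle range (7.49 to 8.625), and the medians were -0.09, -0.44 and -0.47. Within J8 the S phase mean at 14 h was 7.62 in the treated array and 8.09 and 8.625 in the vehicle arrays. At 17 h, with 1 array per group, it was 7.54 in the treated array and 7.49 in the vehicle array. The called S phase genes stood within J8 at -0.97 (14 h) and -0.20 (17 h) for Tk1 and at -1.14 and -0.51 for E2f8.

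Among treated arrays, replicate 5 (J8, 14 h) was highest for Ifi27l2a, Rtp4 and Oasl2, and replicate 1 (J2) for Ly6e. Replicate 2 (J6) was highest for H2-Aa and Cd74, and next to the highest for Ifi27l2a (7.44), Rtp4 (8.34) and the mitosis mean (7.48). Replicate 3 (J6) was highest for the mitosis mean, at 7.61. These are ranks of single arrays, and the differences between them were not tested.

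Fcgr4, a receptor for immunoglobulin G on myeloid cells, was the 1 of 15 tested complement and Fc receptor genes that passed. Vehicle arrays lay between 9.74 and 10.63 (median 10.12) and treated arrays between 9.09 and 9.68 (median 9.40), with no overlap. Fcgr4 was 1.61-fold lower (-0.69 ± 0.15 SE, adjusted p = 0.0462, limma), with -0.56, -0.72 and -0.66 in J2, J6 and J8. The inhibitory receptor gene Fcgr2b (-0.15), the shared signalling chain gene Fcer1g (-0.14) and the complement receptor gene C3ar1 (0.12) each had an adjusted p over 0.9. Map4k1, a kinase of blood cells that restrains antigen receptor signalling, was at 8.001 ± 0.23 (SD, n = 8) in vehicle and 7.47 ± 0.28 (SD, n = 6) in treated arrays, a difference of -0.67 ± 0.12 (SE, adjusted p = 0.026, limma). Siglec1, the sialic acid lectin of some tissue macrophages, named after its value was seen, stood at -0.79 ± 0.21 (SE, adjusted p = 0.108, limma), from 7.54 to 8.05 in treated and from 7.92 to 9.10 in vehicle arrays, and passed in the fit to the 14 arrays alone.

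**Figure D3:**
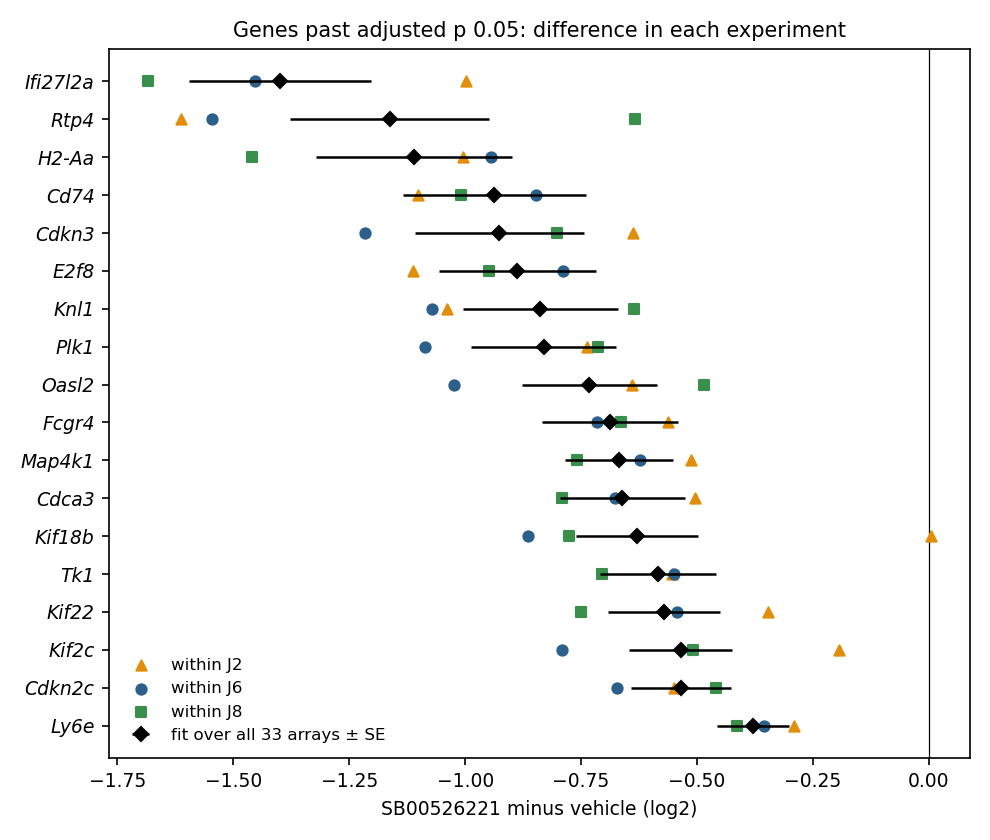
SB00526221 minus vehicle (log2) for the 18 genes past the threshold. Black diamonds are the fit over all 33 arrays with its standard error, and coloured symbols the difference of group means within J2, J6 and J8. All values lie below 0 except Kif18b in J2, where each group had 1 array.

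The kinases and their receptors themselves gave 0 calls. In the JAK and STAT list, 0 of 9 tested members passed and the median was 0.01. Jak1 was at 0.08 ± 0.11, Jak2 at 0.10 ± 0.11 and Tyk2 at -0.06 ± 0.16 (SE, adjusted p = 0.999 for each, limma). The signs of Jak2 and Tyk2 turned in 1 alternative each (-0.01 for Jak2 with array weights, 0.01 for Tyk2 without J8). Of the cytokine receptors coupled to JAKs, 0 of 21 passed, with a median of -0.02; Crlf2, the receptor of thymic stromal lymphopoietin, was at -0.28 (adjusted p = 0.894) and Il21r at -0.26 (adjusted p = 0.827).

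Of the feedback genes of the pathway, 0 of 19 passed, with a median of -0.08. Socs3, the inhibitor induced by STAT3, was at -0.46 ± 0.12 (SE, adjusted p = 0.114, limma) and lower in 6 of 6 treated arrays, from -0.36 in J2 to -0.64 in J8. Pim1, a kinase induced by STAT5 and STAT3, was at -0.31 ± 0.21 (SE, adjusted p = 0.996, limma). Socs1 was at -0.10 ± 0.11 (SE, adjusted p = 0.999, limma), with 0.19 in J6 and -0.35 in J8.

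STAT6 targets of interleukin-4 had 0 of 12 past the threshold and a median of -0.25. Mrc1, the mannose receptor, was at -0.47 (adjusted p = 0.624), Retnla, a secreted protein of alternatively activated macrophages, at -0.43 (adjusted p = 0.207), and the eosinophil chemokine Ccl24 at -0.37 (adjusted p = 0.173). STAT3 targets had 0 of 13 and a median of -0.11. NF-kB targets had 0 of 19 and a median of -0.14, with the chemokines Ccl2 at -0.75 (adjusted p = 0.0665), Ccl3 at -0.67 (adjusted p = 0.271) and Cxcl2 at -0.58 (adjusted p = 0.441). Ccl3 was at 0.73 in J2, -1.14 in J6 and -0.77 in J8. Immediate early genes had 0 of 24 and a median of -0.17, with Fos at -0.66 (adjusted p = 0.64), Egr1 at -0.42 (adjusted p = 0.315) and Zfp36, which destabilises inflammatory mRNAs, at -0.37 (adjusted p = 0.425).

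Genes of macrophage identity and clearance gave 0 calls as well. Of 23 tested large peritoneal macrophage genes the median was 0.06 (-0.00 without the arrays that stood apart), with Tgfb2 at 0.25 (adjusted p = 0.584) and Adgre1 at 0.12 (adjusted p = 0.969). Of 17 scavenger and efferocytosis genes the median was 0.04, with the receptor kinase Axl at -0.73 (adjusted p = 0.584) and the haemoglobin scavenger receptor Cd163 at -0.43 (adjusted p = 0.482). Toll-like receptor genes (median -0.11 over 13), circadian clock genes (0.03 over 13), cholesterol synthesis (-0.01 over 14), glucocorticoid-induced genes (0.01 over 8) and reference genes (-0.01 over 8) had 0 calls each. No gene rose past the threshold; the 5 highest by moderated statistic were Slc38a2 (0.24), BC085271 (0.33), Ahsa1 (0.36), Mrgprf (0.30) and Tnfaip8 (0.27), with adjusted p between 0.198 and 0.276.

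**Figure D4:**
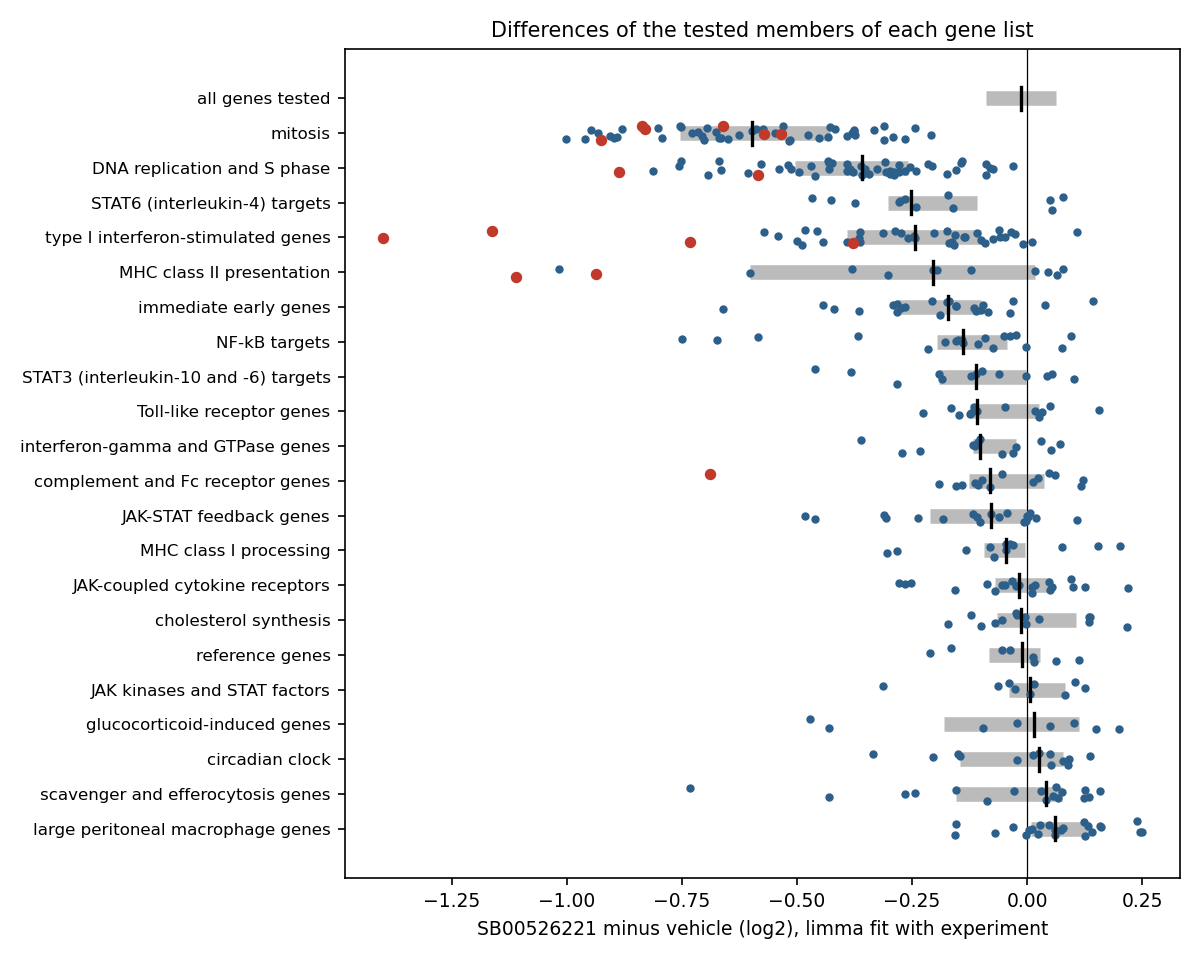
SB00526221 minus vehicle (log2) for each tested member of 21 gene lists, as points; grey bars span the middle of each list from the lower to the upper quartile and black ticks mark medians. Red points passed the threshold, and the mitosis (median -0.60) and S phase (-0.36) lists lie furthest below all genes tested (-0.01).

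SB00526222 is the other compound with the most arrays in these macrophages, 7 after prolonged treatment. Both compounds were set against the same vehicle arrays, and no dose is given for either, so a matched dose cannot be stated and the values are given side by side. The SB00526222 arrays came from J2, J3 and J8, and the SB00526221 arrays from J2, J6 and J8. The values therefore rest on unlike sets of experiments, and what this contributes to the differences was not tested. SB00526222 gave 1 gene past the threshold (0.00908% of those tested), Ifi27l2a at -1.11 ± 0.19 (SE, adjusted p = 0.0258, limma), where SB00526221 gave -1.40. Rtp4 was at -0.75 with SB00526222 and -1.16 with SB00526221, and Oasl2 at -0.52 and -0.73. H2-Aa was at 0.05 with SB00526222 and -1.11 with SB00526221, Cd74 at -0.00 and -0.94, Map4k1 at 0.04 and -0.67, and Fcgr4 at -0.14 and -0.69. Plk1 was at -0.32 with SB00526222 and -0.83 with SB00526221.

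In the direct contrast of this 1 pair of compounds, 0 of 11008 genes passed (0%, limma), and 405 had an unadjusted p under 0.05. The 18 genes were chosen on the SB00526221 arrays, so their differences between compounds are not independent of that choice. For H2-Aa the difference was -1.16 (95% interval -1.66 to -0.66, adjusted p = 0.286), for Cd74 -0.94 (-1.40 to -0.47, adjusted p = 0.847) and for Map4k1 -0.71 (-0.99 to -0.43, adjusted p = 0.161). For Ifi27l2a it was -0.29, with an interval from -0.75 to 0.17. Leaving out single arrays gave 1 call in each of 2 cases, Map4k1 (-0.82, adjusted p = 0.038) without SB00526221 replicate 1, and Coro1a, an actin regulator of leukocytes, (-0.76, adjusted p = 0.0393) without SB00526222 replicate 5. The latter array stood apart, with a mean correlation of 0.924.

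Dendritic cells (DC) of the spleen gave 5 SB00526221 and 6 vehicle arrays, in part from the same mice. The treated DC arrays came from J2 and J6 and the vehicle DC arrays from J2, J3 and J6. No DC array came from J8, so the macrophage and DC values rest on unlike sets of experiments. Since the markers above go against the splenic label of the macrophage arrays, a difference of cell type and one of tissue cannot be told apart here. Of 10149 genes tested in both cell types, 1 passed in DC (0.00985%): Oasl2 at -0.95 ± 0.16 (SE, adjusted p = 0.00486, limma), against -0.72 in macrophages in the joint fit. The difference of the effect between the cell types passed for 0 genes (0%, limma with animal as a block), and 754 had an unadjusted p under 0.05. H2-Aa was at 0.12 in DC and -1.12 in macrophages, a difference of -1.24 ± 0.27 (SE, adjusted p = 0.327). Cd74 was at -0.02 in DC and -0.94 in macrophages (difference -0.92 ± 0.23 SE, adjusted p = 0.327), and Ifi27l2a at -0.55 and -1.41 (difference -0.86 ± 0.25 SE, adjusted p = 0.495). These genes were chosen on the macrophage arrays, so the sizes are descriptions.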

How the data were processed

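The authors deposited 1 intensity per probe set for each Affymetrix Mouse Gene 1.0 ST array, made with Affymetrix Power Tools and RMA per the submitters' processing notes. Their versions, and which arrays were normalized as one set, are not stated in the labels read here. RMA corrects background and equalises intensity distributions, which can shrink a change shared by many genes. The intensities were read as linear, since array medians ran from 119.5 to 142.3 in the 168 arrays, and log2 was taken without a pseudocount. The number of arrays, and not a read depth, limits the precision.

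Of 24922 probe sets, 21425 carried 1 gene symbol in the platform annotation, 1399 several and 2098 none, and the last 2 kinds were left out. By gene identifier, 21347 matched the RefSeq table of GRCm38, with 0 symbols changed. The probe set with the highest mean stood for each of 19752 genes. Identical array pairs numbered 0.

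The fit used limma 3.58.1 in R 4.3.3 (lmFit and eBayes, moderated test, two-sided), with group and experiment as fixed effects, 21 residual degrees of freedom and 26.7 with the prior. The comparison with DC held the animal as a random block (correlation 0.196). Named genes were those past the threshold, the up to 4 tested genes per list with the most extreme moderated statistic, the 5 highest and 5 lowest statistics, and the JAK, SOCS, Irf7, Cish and Pim1 genes where tested. The members and gene lists were chosen with earlier results of these data known. The fit was tested on simulated data of 11008 genes, of which 200 were changed, by 1 or by 0.5 in equal shares. The fit recovered 97% of changes of 1 and 62% of changes of 0.5, and it called 8 unchanged genes. The simulated noise was normal and independent between genes, with no array standing apart. These rates may therefore not hold for the real arrays. The alternatives are in the closing section. Arrays of other cell types and compounds were not analysed here beyond the comparisons named.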

Additional observations from a re-analysis of the deposited data

Results flagged for a closer look

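Among 190 groups of values tested for a sample far from the others (Dixon's test), 13 were flagged, where chance flags about 1 in 20. Vehicle replicate 1, from J2, was lowest for Tyk2 (8.42, next 9.20) and Gm12250 (7.46, next 8.05), and highest for Ly6e (12.82, next 12.55) and for the B cell marker mean (7.33, next 6.93). It is also the vehicle array that stood apart by correlation. Vehicle replicate 6, from J8, was lowest for Slc38a2 (10.31, next 10.54) and Mga (8.59, next 9.04). Vehicle replicate 3, from J3, was highest for Rtp4 (9.93, next 9.48) and Fcgr2b (12.28, next 12.10). Vehicle replicate 5, from J6, was highest for Cdkn3 (8.85, next 8.04). Among the treated arrays, replicate 6 was highest for Adgre1 (13.00, next 12.78) and Zc3h7a (9.31, next 9.10), replicate 5 for the natural killer cell marker mean (5.11, next 4.95), and replicate 3 for the marginal zone macrophage marker mean (8.708, next 8.01). Without vehicle replicate 1, 2 genes passed the threshold, with Ifi27l2a at -1.47 (adjusted p = 0.00124).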

How the results depend on the processing

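The count of 18 genes past the threshold was within 1.5 times of itself with experiment and hour as strata (17), no filter (21), a filter of 6 arrays (17), the mean of all probe sets (17), a trend with robust spread (19), log2(value + 16) (18) and, chosen after seeing the data, without J2 (13). It was 61 with only the 14 arrays, 48 without J3, 31 without the arrays that stood apart, 158 with array weights (157 lower), 3 without the experiment term, 3 with experiment as a random block, and 1 with quantile normalization or median centring. Alternatives chosen after seeing the data gave 0 without J6 (737 at an unadjusted p under 0.05), 2 without J8, 40 with the B cell covariate and 0 with the small peritoneal macrophage covariate (461). Leaving out 1 array gave between 1 and 66 genes: 1 without vehicle replicate 4, 5 or 8 or SB00526221 replicate 4 or 6, 2 without vehicle replicate 1, 3 without SB00526221 replicate 3, 5 without its replicate 2 or 5, 10 without vehicle replicate 2, 42 without SB00526221 replicate 1 and 66 without vehicle replicate 7. The cause was not tested. In each of these fits every gene past the threshold was lower, apart from 1 of the 158.

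Over 33 alternatives the median difference ran from -0.69 to -0.44 for mitosis, -0.44 to -0.22 for S phase, -0.34 to -0.15 for interferon-stimulated genes (-0.15 without J6, -0.34 without J8) and -0.26 to -0.17 for class II, against -0.03 to 0.02 for all genes tested. Signs turned for the large peritoneal macrophage median without the arrays that stood apart (-0.0040), Jak2 (-0.0077) and Socs1 (0.011) with array weights, Tyk2 (0.014) and Socs1 (0.067) without J8, Ccr7 (-0.0027) with the small peritoneal covariate, and Kif18b within J2 (0.0037). The contrast of compounds gave 0 genes, or 1 without SB00526221 replicate 1 or SB00526222 replicate 5, and the contrast with DC gave 0 throughout. No paired analysis was possible because animal numbers are not shared between the groups and replicate numbers follow only the order of deposition.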

Other observations

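1 array labelled spleen MF came from a mouse taken 4 h after the last of 3 treatments with SB00526221, in J2, and enters no comparison above. Its log2 level was 7.68 for Ifi27l2a, 8.14 for Rtp4 and 8.57 for Oasl2, where the J2 vehicle array stood at 7.40, 9.17 and 9.23. For H2-Aa it stood at 11.61 and for Plk1 at 8.41, where the J2 vehicle array was at 9.80 and 8.12. This array was also among the 4 that stood apart, with a mean correlation of 0.946. The J2 vehicle array it is set beside was another of these 4, at 0.947.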
